A study of Bos taurus with 10 samples.

Results

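Matrix metalloproteinases (MMPs), the related ADAM, ADAMTS and ADAMTSL families and the tissue inhibitors of metalloproteinases (TIMPs) were followed in the right ventricle of newborn calves kept at low pressure. The set held every probe set of the array whose single gene symbol in the platform annotation was MMP, ADAM, ADAMTS, ADAMTSL or TIMP followed by a digit. These were 52 of 24016 probe sets and covered 30 of 9155 named genes: 11 MMP, 8 ADAM, 6 ADAMTS, 1 ADAMTSL and 4 TIMP genes. ADAM17 and ADAMTS9 had no probe set under their symbol and were not analysed here.

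Right ventricular tissue came from 10 male Holstein calves, 1 Affymetrix Bovine GeneChip array each. The 5 controls stayed in ambient air at 1525 m. A further 5, which the sample titles call PH calf and which are called hypoxia calves here, were held at a reduced pressure equal to 4570 m. Each exposure ran for 14 days from postnatal day 3 to 7. The controls were therefore not at sea level, all animals were male, and whole tissue was sampled, so fewer cells of a type and less RNA per cell cannot be told apart. Values are log2 expression from the authors' RMA normalization, in which a difference of 1 is a 2-fold change, and a probe set is a group of short probes read together as 1 value.

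MMPs are zinc proteases that are made as inactive precursors and cut collagens, laminins and other matrix proteins once activated. ADAMs are membrane-bound relatives that release the outer parts of cell surface proteins such as growth factors, Notch and cadherins, while the secreted ADAMTS enzymes cut proteoglycans or trim procollagen. TIMPs bind the active sites of these enzymes and block them. In a ventricle under load this system is known for its part in the turnover of the collagen network around cardiac muscle cells.

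Cardiomyocyte markers were bright on every array, with a list mean between 13.68 and 13.94. Hypoxia calves 178 and 199 stood apart along the first principal component, which held 30.4% of the variance, where they scored 34.4 and 46.1, the other 3 hypoxia calves 9.79 to 13.9 and the controls -28.0 to -13.6. Differences of several genes are given with and without this pair. Macrophage and monocyte markers were also high in them: the mean of 8 measured markers was 8.17 in calf 178 and 7.97 in calf 199, where the remaining hypoxia calves had 7.14 to 7.79 and controls 6.50 to 7.45. Neutrophil markers, 5 measured, had means of 6.79 and 6.54 in the same calves, while the remaining hypoxia calves had 5.35 to 5.66 and controls 5.04 to 5.67. The mean of 6 T lymphocyte markers was 4.196 in calf 178 and 4.555 in calf 199, where the remaining hypoxia calves had 4.66 to 4.91 and controls 4.93 to 5.65. All 6 T lymphocyte markers had negative differences, of which 0 passed (limma) and 4 had an unadjusted p under 0.05. Of all 9155 named genes, 4836 had a negative difference, 3.66% passed and 11.3% were lower at an unadjusted p under 0.05.

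Of the 30 genes, MMP19 rose on its brightest probe set and 0 fell (limma, adjusted p under 0.05 over all 24016 probe sets). That is 3.33% of the genes, against 3.66% of all 9155 named genes (2.17% higher and 1.49% lower), so the share lay near the background. ADAM10 rose on 1 of its 3 probe sets, which was not the brightest, so that 2 of 52 probe sets passed, against 2.71% of all probe sets. At an unadjusted p under 0.05, 8 of 30 genes were higher and 0 lower, or 26.7%, against 22.4% of all named genes, of which 11.1% were higher and 11.3% lower. In TIMP1, MMP19 and ADAM10 all hypoxia calves lay above all controls, and 0 genes had the opposite separation. That is 10% of the 30 genes, against 7.31% of all named genes with groups that did not overlap and 3.58% with hypoxia on top.

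**Figure D1:**
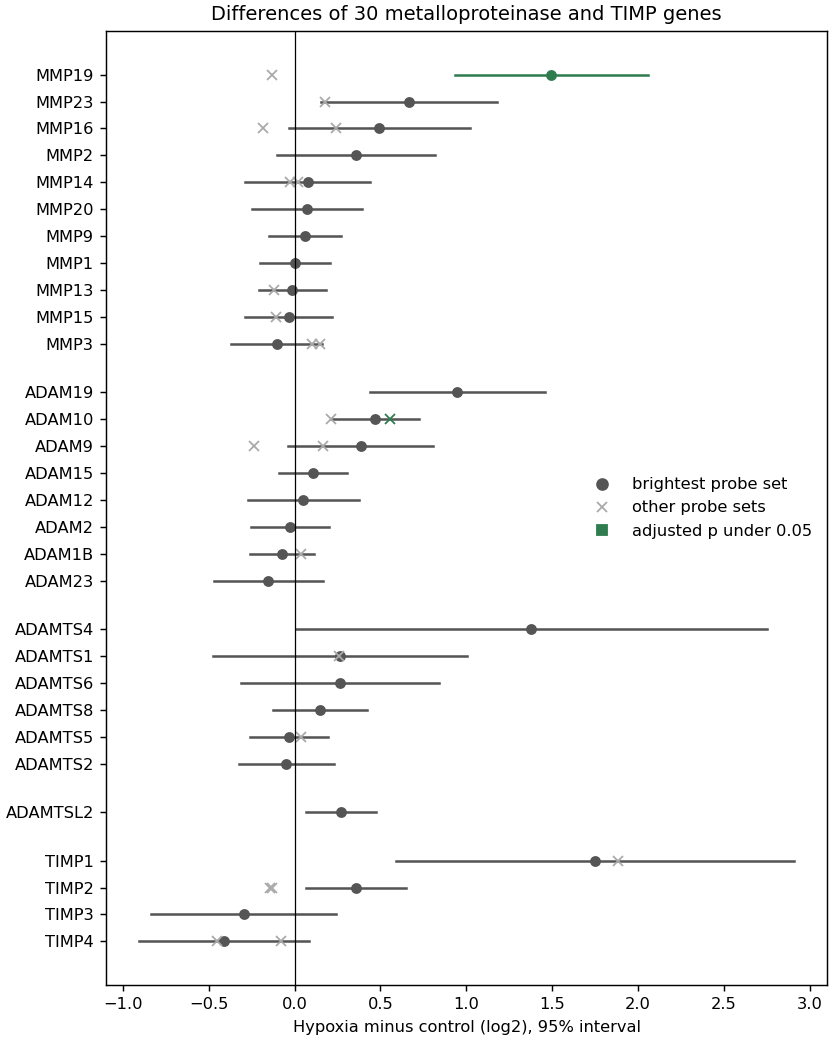
Difference between hypoxia and control calves (log2, horizontal axis) for each of 30 genes, grouped by family, with the 95% interval of the brightest probe set as a line and the other probe sets of the gene as crosses. Only MMP19 and 1 probe set of ADAM10 are drawn in green, the colour for an adjusted p under 0.05, and the interval of TIMP1 runs from 0.59 to 2.91.

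The median difference over the 30 genes was 0.09, against -0.02 over all named genes. Of the 30 differences 20 were above 0, or 66.7%, against 47.2% of all named genes. The genes were split at 5.52, the median level of all probe sets. The 11 brighter genes had a median difference of 0.39, against -0.02 over the 6387 named genes in that range. The 19 dim genes, MMP19 among them, had a median of 0.05, against -0.01 over 2768 named genes. A dim probe set says little about whether a gene was expressed, and probe sets of different genes cannot be ranked by amount of transcript.

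MMP19 is a secreted metalloproteinase that cuts basement membrane proteins. On its brighter probe set it was 4.26, 4.39, 4.11, 4.40 and 4.32 in control calves 176, 177, 181, 195 and 180. It was 5.37, 6.66, 5.16, 6.33 and 5.44 in hypoxia calves 173, 178, 192, 199 and 204. The groups did not overlap, calves 178 and 199 were highest, and the controls were close together. The gene rose by 1.50 ± 0.26 (SE, n = 5 per group), or 2.82-fold, with a 95% interval of 0.93 to 2.06 (limma, adjusted p = 0.0152). It passed with each of the 10 calves left out in turn (differences of 1.28 to 1.65, highest adjusted p = 0.0445). Without calves 178 and 199 together it still rose, by 1.03 (adjusted p = 0.0141). A dimmer MMP19 probe set with a mean of 2.51 differed by -0.13 ± 0.10 (adjusted p = 0.549), and the mean of the 2 probe sets rose by 0.68 ± 0.13 (adjusted p = 0.0163). Of the macrophage markers, 8 of 8 had positive differences, against 47.2% of all named genes, and CD5L passed, against 3.66% of all named genes. The part of these markers in the MMP19 result was not tested. Among these markers CD68, AIF1, CD14, MSR1 and C1QB were highest in calves 178 and 199, as MMP19 was. The other markers were not: C1QA was highest in control calf 181 (10.31), and CSF1R was higher in that calf (7.79) than in calf 178 (7.60). CD5L, a protein secreted by macrophages, was highest in hypoxia calf 204.

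The gelatinases, which cut denatured collagen and basement membrane collagen, did not pass. MMP2, gelatinase A, ranged from 7.88 to 8.76 in controls and from 8.21 to 9.07 in hypoxia calves. The groups overlapped over most of their range, with a difference of 0.36 ± 0.21 (95% interval -0.10 to 0.82; limma, adjusted p = 0.425). MMP9, gelatinase B, which neutrophils carry in granules, was dim on every array, at 3.11 to 3.49 in controls and 3.31 to 3.51 in hypoxia. Its difference was 0.06 ± 0.10 with a 95% interval of -0.15 to 0.27. Of the 5 neutrophil markers whose means are given above, 0 passed and 1 had an unadjusted p under 0.05, against 3.66% and 22.4% of all named genes. This was LTF, with 3.47 to 4.16 in controls and 4.28 to 6.01 in hypoxia (difference 0.96, limma, adjusted p = 0.117).

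Among membrane-anchored MMPs, MMP23 and MMP16 had the larger differences. MMP23 had controls between 6.12 and 7.08 and hypoxia calves between 6.88 and 7.91, with calves 178 and 199 highest. It differed by 0.67 ± 0.24 without passing (limma, adjusted p = 0.155), and by 0.37 without those calves. MMP16 differed by 0.49 ± 0.24 on its brightest probe set (adjusted p = 0.318), by 0.24 ± 0.08 on the next, where the groups did not overlap (4.72 to 4.94 in controls, 4.95 to 5.17 in hypoxia), and by -0.18 ± 0.12 on the dimmest. These 3 probe sets therefore did not share a sign, and without calves 178 and 199 the brightest differed by 0.23. MMP14, the membrane enzyme that activates the MMP2 precursor together with TIMP2, differed by 0.08 ± 0.17 (95% interval -0.29 to 0.44), and its other 2 probe sets by -0.03 and 0.02. All of these MMP14 probe sets were dim, with means of 4.58, 3.45 and 2.82. The difference on the brightest was below 0 without control calf 180, at -0.031. MMP15, another membrane-type MMP, was also dim (mean 3.56) and differed by -0.04 ± 0.12.

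The secreted collagenases MMP1 and MMP13, the stromelysin MMP3 and the tooth enamel protease MMP20 were dim, with means of 2.57 to 3.98 on their brightest probe sets. On these probe sets their differences lay between -0.11 and 0.07. All 4 intervals stayed within -0.37 and 0.39, so changes beyond that size on these probe sets lay outside the 95% interval.

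**Figure D2:**
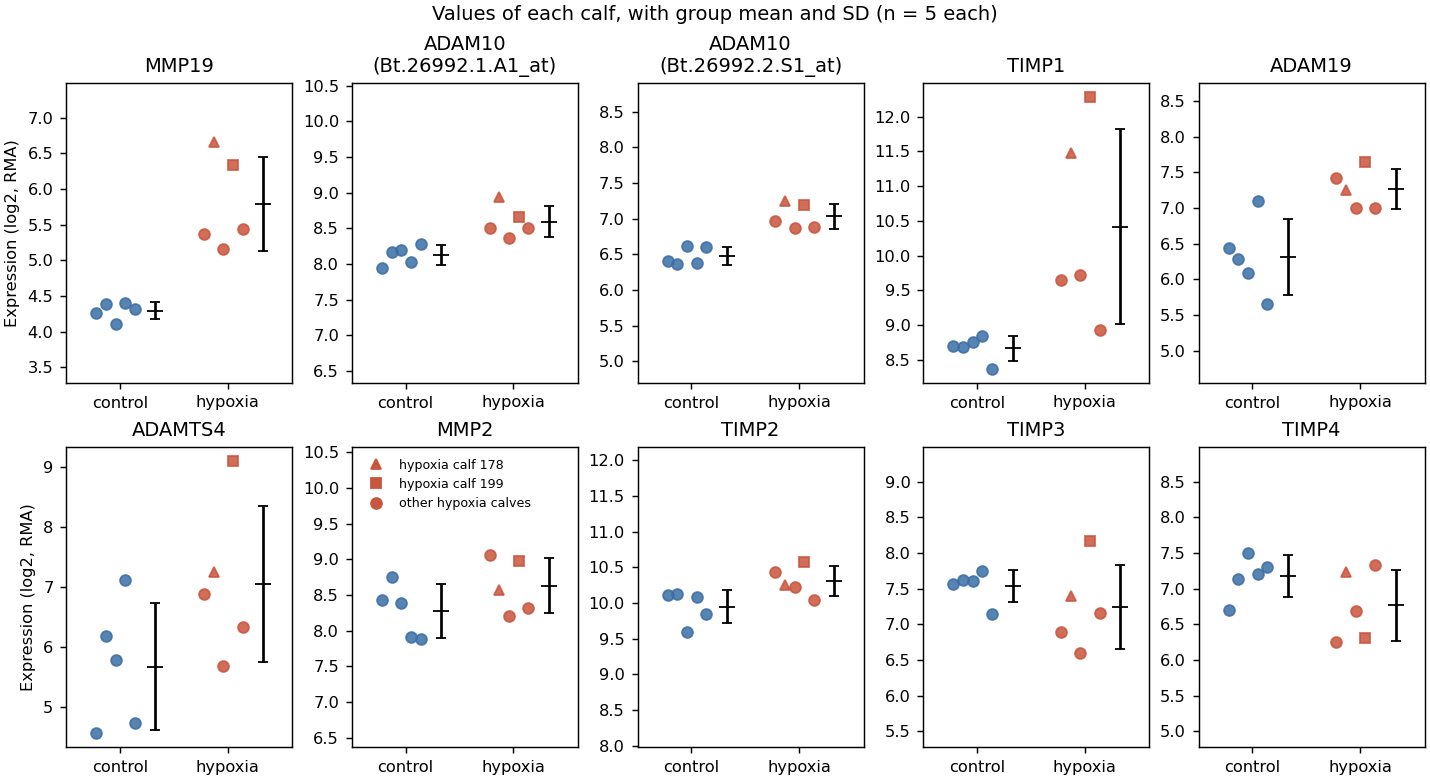
Log2 expression of each calf for 9 genes (10 panels, vertical axes of at least 4.2 log2 units), controls in blue and hypoxia calves in red, with the group mean and SD as black bars. MMP19 and ADAM10 separate the groups with a narrow control spread, TIMP1 spreads from 8.93 to 12.29 among hypoxia calves, and calves 178 (triangle) and 199 (square) are the highest hypoxia calves for TIMP1 and MMP19.

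ADAM10 is a sheddase that cuts Notch receptors, cadherins and the amyloid precursor protein at the cell surface. On the middle of its 3 probe sets by brightness it was 6.41, 6.37, 6.62, 6.38 and 6.61 in control calves 176, 177, 181, 195 and 180. The values in hypoxia calves 173, 178, 192, 199 and 204 were 6.97, 7.25, 6.87, 7.20 and 6.88. The groups did not overlap, and both groups were narrow, with an SD of 0.13 in controls and 0.18 in hypoxia. On this probe set ADAM10 rose by 0.56 ± 0.11, or 1.47-fold (95% interval 0.33 to 0.79; limma, adjusted p = 0.0214). The call ended without control calf 177 (adjusted p = 0.0545), without hypoxia calf 199 (adjusted p = 0.0506) and without calves 178 and 199 together (difference 0.43, adjusted p = 0.110). The brightest probe set ran from 7.94 to 8.28 in controls and from 8.36 to 8.93 in hypoxia. It also separated the groups, and its difference of 0.47 ± 0.12 lay just outside the threshold (adjusted p = 0.0586). The remaining probe set overlapped between groups and differed by 0.21 ± 0.16. Averaged over its 3 probe sets ADAM10 rose by 0.41 ± 0.10 (adjusted p = 0.0412).

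ADAM19, a sheddase of neuregulins that mice need to form heart valves and the ventricular septum, lay close to the threshold. It was 6.44, 6.28, 6.09, 7.10 and 5.66 in control calves 176, 177, 181, 195 and 180, and 7.43, 7.25, 7.00, 7.64 and 7.00 in hypoxia calves 173, 178, 192, 199 and 204. Control calf 195 alone reached into the hypoxia range. ADAM19 differed by 0.95 ± 0.23, or 1.93-fold (95% interval 0.44 to 1.46; limma, adjusted p = 0.0538). Without control calf 195 the difference was 1.15 and passed (adjusted p = 0.0159), and it passed with none of the other 9 calves left out (highest adjusted p = 0.125). Without hypoxia calves 178 and 199 it was 0.83 (adjusted p = 0.229). Among calves numbered 173 to 181 the difference was 1.22, and among those numbered 192 to 204, where calf 195 was the only control, it was 0.12.

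ADAM9, a widely expressed sheddase, differed by 0.39 ± 0.19 on its brightest probe set, and by 0.11 without hypoxia calves 178 and 199. This probe set ran from 8.94 to 9.56 in controls and from 9.07 to 10.21 in hypoxia. The other 2 ADAM9 probe sets differed by -0.24 and 0.16, so the signs were mixed, and none passed (limma, lowest adjusted p = 0.336). ADAM12, an ADAM of growing and regenerating muscle, was dim and differed by 0.05 ± 0.15. Hypoxia calf 199 stood alone at 4.09, and without it the difference was -0.075. ADAM12 was also below 0 without control calf 181, at -0.024. ADAM15, found on endothelial cells, differed by 0.11 ± 0.09 (95% interval -0.09 to 0.30). ADAM1B and ADAM2, known from mouse sperm, and the neural ADAM23, which lacks protease activity, differed by -0.07, -0.03 and -0.15.

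None of the 6 ADAMTS genes or ADAMTSL2 passed, and ADAMTS4 and ADAMTS1 varied widely between calves. ADAMTS4, an aggrecanase that also cuts versican, ran from 4.55 to 7.11 in controls and from 5.67 to 9.11 in hypoxia. Its values were 9.11 in hypoxia calf 199 and 7.26 in calf 178, and 7.11 in control calf 195. The groups overlapped, and the difference of 1.38 ± 0.63, the third in size among the 30 genes, did not pass (95% interval 0.01 to 2.75; limma, adjusted p = 0.279). It was 0.62 without calves 178 and 199 (adjusted p = 0.724). Among calves numbered 173 to 181 it was 1.76, and among those numbered 192 to 204, with control calf 195 alone as control, -0.07. ADAMTS1, a versican-cutting enzyme that responds to inflammation, was bright but also wide, at 9.03 to 10.78 in controls and 9.54 to 10.71 in hypoxia. It differed by 0.27 ± 0.34, with 0.26 on its other probe set.

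ADAMTS5, the other main aggrecanase, was dim and differed by -0.03 ± 0.10 (95% interval -0.26 to 0.19). Its sign was not stable, at 0.041 without control calf 180. ADAMTS2, which removes the amino-terminal propeptide of fibrillar procollagens, differed by -0.05 ± 0.13. ADAMTS6 and ADAMTS8 differed by 0.26 ± 0.26 and 0.15 ± 0.12. ADAMTSL2, a protein without a protease domain that binds fibrillin microfibrils, had 4.89 to 5.15 in controls and 5.13 to 5.49 in hypoxia. Its difference of 0.27 ± 0.09 was small and regular across calves without passing (95% interval 0.06 to 0.48; adjusted p = 0.153).

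The 4 inhibitors did not move together. TIMP1, the inducible secreted inhibitor, had the largest difference of the 30 genes and the largest SD among hypoxia calves. On the brighter of 2 probe sets it was 8.69, 8.69, 8.75, 8.84 and 8.37 in control calves 176, 177, 181, 195 and 180, and 9.65, 11.48, 9.72, 12.29 and 8.93 in hypoxia calves 173, 178, 192, 199 and 204. Hypoxia calf 204 lay only just above the highest control, whereas calves 178 and 199 stood far above it. The difference of 1.75 ± 0.53, or 3.36-fold, did not pass (95% interval 0.59 to 2.91; limma, adjusted p = 0.106), with an SD of 1.41 in hypoxia and 0.18 in controls. The other TIMP1 probe set gave 8.08 to 8.47 in controls and 8.71 to 11.96 in hypoxia, and differed by 1.88 ± 0.53 (adjusted p = 0.0855). Neither passed with any calf left out, and the lowest adjusted p was 0.0511. Without calves 178 and 199 the differences were 0.77 and 0.88 (adjusted p = 0.110 and 0.0581). Macrophage and neutrophil marker means were also highest in calves 178 and 199 as given above, and their part in the TIMP1 values was not tested.

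TIMP2, which joins MMP14 in activating MMP2, gave unlike results on its 3 probe sets. The brightest ran from 9.59 to 10.13 in controls and from 10.04 to 10.58 in hypoxia, a difference of 0.36 ± 0.13 (limma, adjusted p = 0.186). The other 2 differed by -0.13 and -0.14, and the mean of the 3 by 0.03 ± 0.14, so no direction was shared. TIMP3, the inhibitor that is held in the matrix and also blocks ADAMs and ADAMTS enzymes, had a narrow control range of 7.15 to 7.75 and a hypoxia range of 6.60 to 8.16. It differed by -0.30 ± 0.25 (95% interval -0.83 to 0.24; adjusted p = 0.595). Calf 199 was the highest of all 10 calves, and without calves 178 and 199 the difference was -0.65 (adjusted p = 0.122).

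TIMP4, the inhibitor most typical of heart muscle, was lower on all 3 probe sets without passing. On the brightest it was 6.71 to 7.51 in controls and 6.26 to 7.33 in hypoxia, and differed by -0.41 ± 0.23 (limma, adjusted p = 0.390). The others differed by -0.45 ± 0.20 (adjusted p = 0.259) and -0.08 ± 0.11. Hypoxia calves 173 and 199 were lowest on the first 2 of these probe sets, and calves 178 and 204 lay within the control range. TIMP4 was therefore low in calf 199, where TIMP1 was highest, but not in calf 178.

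**Figure D3:**
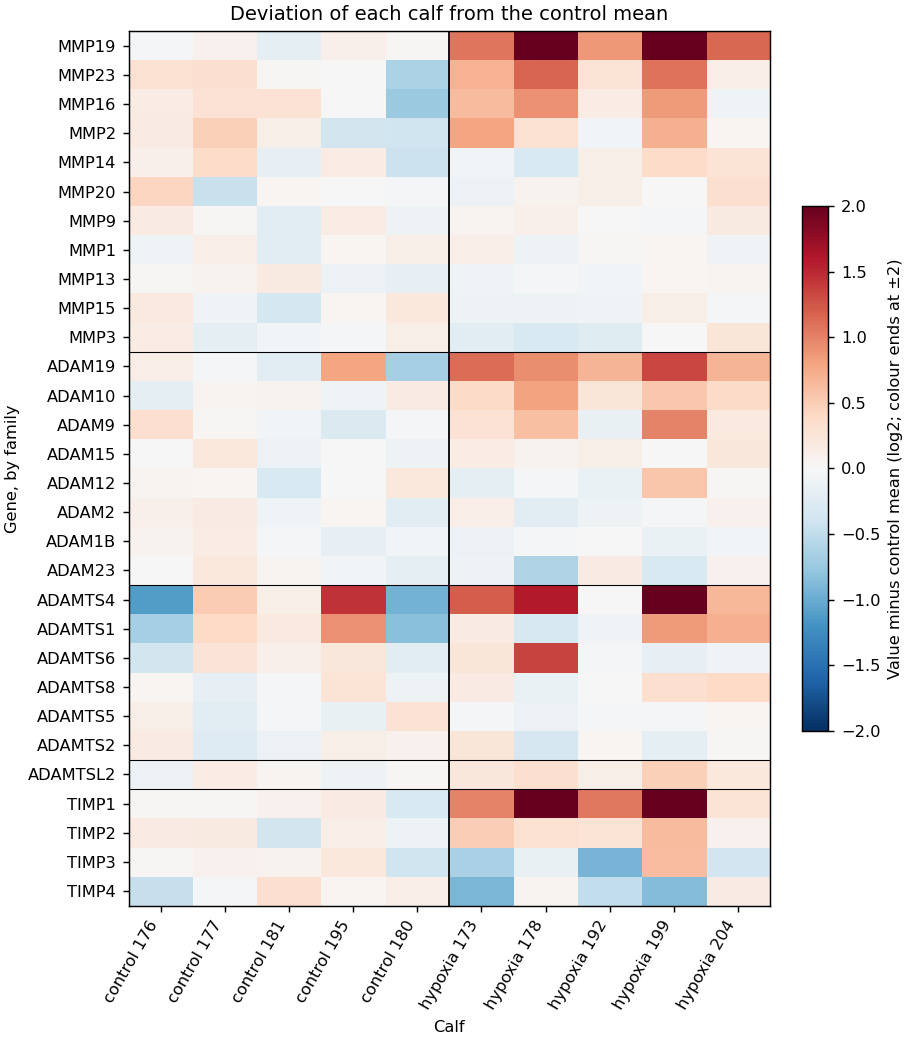
Deviation of each calf (columns) from the control mean on the log2 scale for the 30 genes (rows, by family), red above and blue below, with colours ending at ±2. All 5 hypoxia calves lie above the control mean in TIMP1, MMP19, ADAMTS4, ADAM19, MMP23, ADAM10, TIMP2 and ADAMTSL2, the cells of calves 178 and 199 go beyond 2 for MMP19 and TIMP1, and in ADAMTS4 calf 199 does so while calf 192 lies almost at the control mean.

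Hypoxia calves 178 and 199 held the 2 highest hypoxia values in 9 of the 30 genes, or 30%, against 16.4% of all named genes. The SD was larger in hypoxia than in controls for 17 of 30 genes, or 56.7%, against 46.5% of all named genes. Of 15 genes with several probe sets, 7 had 1 sign on all of them and 8 had mixed signs.

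Genes that work with these proteases were described in 5 lists. The plasminogen system turns plasminogen into plasmin, a protease that activates MMP precursors. Of its 8 measured genes 3 rose and 0 fell (6 at an unadjusted p under 0.05), with a median difference of 0.93, against 3.66% of all named genes passing, 22.4% at the unadjusted p and a median of -0.02. PLAU, the urokinase plasminogen activator, was 6.58 to 7.05 in controls and 7.56 to 8.57 in hypoxia and rose by 1.04 ± 0.18 (limma, adjusted p = 0.0139). SERPINE2, a secreted inhibitor of urokinase and thrombin, rose by 2.41 ± 0.39 (adjusted p = 0.0123). Activator and inhibitor were thus both higher, and each passed with every calf left out in turn and without calves 178 and 199 together (adjusted p = 0.0239 and 0.0336). ANXA2, a surface receptor for plasminogen and its tissue activator, rose by 1.06 ± 0.25 (adjusted p = 0.0472), but the call ended with every single calf left out except hypoxia calf 204 (highest adjusted p = 0.103). Its partner S100A10 differed by 1.03 ± 0.29 without passing (adjusted p = 0.0845), and by 0.55 without calves 178 and 199.

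Other proteases and activators were mixed: of 15 measured genes 1 rose and 1 fell, with 5 at an unadjusted p under 0.05 (2 higher and 3 lower) and a median difference of 0.04. Over all named genes 2.17% rose, 1.49% fell and 22.4% had such a p. CTSK, the collagen-cutting cathepsin K, was 8.68 to 9.06 in controls and 9.38 to 9.84 in hypoxia and rose by 0.67 ± 0.12 (limma, adjusted p = 0.0155). The call held in all 10 fits that left out a calf, but not without calves 178 and 199 together (0.53, adjusted p = 0.0783). FURIN, the convertase that cuts the precursors of MMP14 and of many ADAMs, fell by 0.79 ± 0.16 (adjusted p = 0.0254) and passed on 1 of 2 probe sets. That call was lost when control calf 177, control calf 181, hypoxia calf 192 or hypoxia calf 199 was left out (adjusted p = 0.0637, 0.0690, 0.0532 and 0.0573). DPP4, a surface peptidase, was 5.86 to 7.34 in controls and 4.79 to 5.93 in hypoxia, and its difference of -1.09 ± 0.27 lay just outside the threshold (adjusted p = 0.0554). The lysosomal protease CTSD differed by -0.45 ± 0.14 (adjusted p = 0.125).

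Among 16 measured inducers and non-TIMP inhibitors, the growth factor TGFB2 rose by 1.76 ± 0.34 (limma, adjusted p = 0.0238) and 0 fell. At an unadjusted p under 0.05 there were 3, all higher, and the median difference was 0.16. Over all named genes 3.66% passed and 22.4% had an unadjusted p under 0.05. The TGFB2 call was lost when control calf 181 or hypoxia calf 178 was left out (adjusted p = 0.0616 and 0.0519). TFPI2, a secreted protease inhibitor, and ETS1, a transcription factor that acts on MMP genes, differed by 0.54 ± 0.21 and 0.45 ± 0.20 (adjusted p = 0.210 and 0.270). BSG, the surface protein known as the inducer of MMPs, differed by -0.29 ± 0.14 (adjusted p = 0.300).

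Of 28 measured matrix substrates 3 rose and 0 fell on their brightest probe sets, against 3.66% of all named genes passing. VCAN (versican) passed on 2 of 3 probe sets and LAMC1 on 3 of 6, but not on the brightest. There they differed by 1.42 ± 0.45 and 0.53 ± 0.13 (limma, adjusted p = 0.120 and 0.0578). At an unadjusted p under 0.05, 10 were higher and 2 lower, against 22.4% of all named genes in either direction, and the median difference was 0.22. The proteoglycan BGN rose by 1.10 ± 0.19 (limma, adjusted p = 0.0163), a call that held in all 10 fits with a calf left out. The basement membrane laminin chain LAMA4 rose by 0.44 ± 0.09 (adjusted p = 0.0225), but not without control calf 177 or 181 (adjusted p = 0.0517 and 0.0574). COL12A1, a collagen that binds fibril surfaces, rose by 1.82 ± 0.42 (adjusted p = 0.0428). Among the 10 fits that left out a calf, it passed only without hypoxia calf 192, 199 or 204 (highest adjusted p = 0.0968). BGN passed on 2 of 2 probe sets, LAMA4 on 1 of 2 and COL12A1 on 1 of 3. DCN, the collagen-binding proteoglycan decorin, was 11.61 to 12.13 in controls and 11.29 to 11.63 in hypoxia. Its difference of -0.49 ± 0.12 lay just outside the threshold (adjusted p = 0.0537).

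Of 19 measured surface proteins cut by ADAMs and their partners, 1 rose and 0 fell, with 5 at an unadjusted p under 0.05, all higher, and a median of 0.13. The shares over all named genes were 3.66% and 22.4%. CD44, a hyaluronan receptor that ADAM10 releases, rose by 1.62 ± 0.32 (limma, adjusted p = 0.0238), with 6.01 to 7.22 in controls and 7.72 to 9.53 in hypoxia. The call was lost when control calf 177, control calf 181 or hypoxia calf 178 was left out (adjusted p = 0.0533, 0.0611 and 0.0544). TSPAN5, a tetraspanin that carries ADAM10 to the surface, separated the groups (5.07 to 5.60 against 5.67 to 6.83) and differed by 0.69 ± 0.21 without passing (adjusted p = 0.104). The other tetraspanins of the list, TSPAN14, TSPAN15 and TSPAN33, overlapped between groups and differed by -0.11, 0.07 and 0.10. CXCL16, a chemokine that ADAM10 releases, and CDH5, the cadherin of endothelial cells, differed by 0.59 ± 0.21 and 0.38 ± 0.16 (adjusted p = 0.153 and 0.249). JAG1 passed on 1 of 2 probe sets but not on the brightest, where it differed by 0.56 ± 0.24 (adjusted p = 0.256). When calves 178 and 199 were both left out, the calls on ANXA2, FURIN, TGFB2, BGN, LAMA4, COL12A1 and CD44 ended too (adjusted p = 0.0578 to 0.120). Over all probe sets, 155 passed in that fit, against 652 with all calves. The pair lay furthest from the controls along the first principal component of these same data, so lost calls are not particular to these genes. In that fit, which has 2 arrays fewer, LAMA4 differed by 0.42, BGN by 0.94, FURIN by -0.72, TGFB2 by 1.36 and CD44 by 1.22, and ANXA2 and COL12A1, over 1.5 times smaller than with all calves, by 0.63 and 1.13. The fibroblast markers had list means of 8.90 to 9.33 in controls and 8.82 to 9.42 in hypoxia, and 1 of 8 rose and 2 fell. Over all named genes 2.17% rose and 1.49% fell. The part of fibroblast or macrophage markers in the results on these related genes was not tested.

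**Figure D4:**
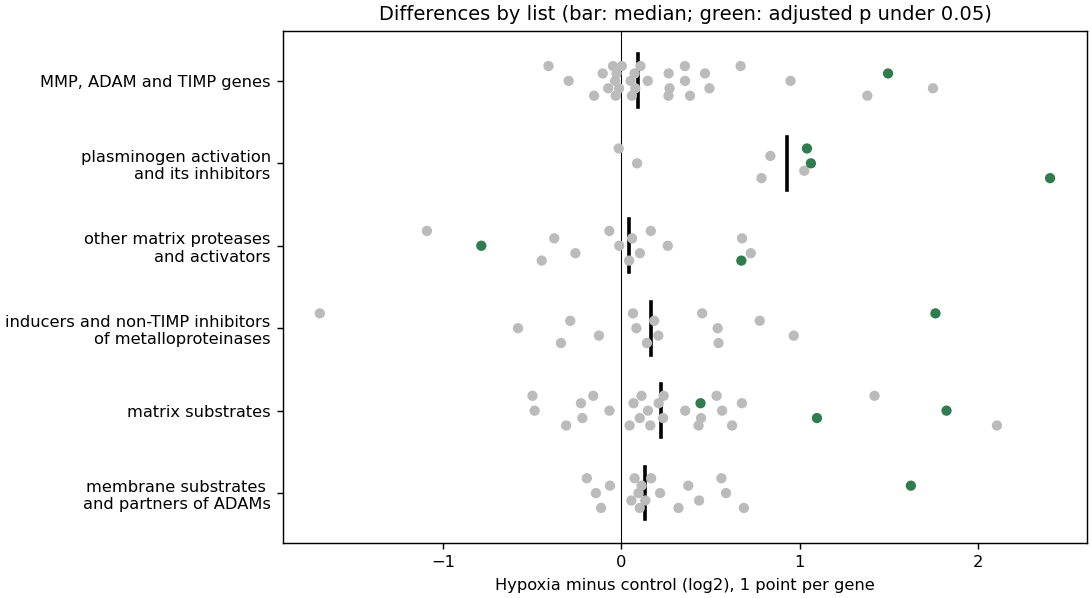
Difference between hypoxia and control calves (log2, horizontal axis) with 1 point per gene for the 30 metalloproteinase and TIMP genes and for 5 lists of related genes, with the median of each as a bar and genes with an adjusted p under 0.05 in green. The median of the 8 plasminogen genes lies at 0.93, and those of the other rows lie between 0.04 and 0.22.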

How the data were processed

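RNA from the right ventricle was hybridised to 1 array per calf. The deposited values were log2 expression per probe set, which the authors made with RMA per the submitters' processing notes (the software is not named in the sources used). Both deposited tables held equal values (largest difference 0), so 1 was read. Affymetrix control probe sets (112 of 24128 rows) were left out. Array medians lay between 5.48 and 5.54. Quantile scaling removes shifts common to all transcripts, and bright values can be compressed. Symbols came from the platform annotation, and all 52 probe sets matched RefSeq's ARS-UCD2.0 gene table, with 0 changed symbols. Coordinates are left out because the annotation names no build.

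Groups came from the titles. Differences were fitted with limma 3.58.1 in R 4.3.3 (lmFit, eBayes without trend), hypoxia minus control, over all 24016 probe sets with Benjamini-Hochberg adjustment, at an adjusted p of 0.05. Intervals are 95% and use limma's moderated variance. A gene was given by its brightest probe set over all 10 arrays. Named were the genes that passed, the 10 with the largest difference, smallest p or highest signal, 17 chosen by name, and up to 4 genes of each related list by smallest p; the other 11 genes of the families were given briefly. The genes, lists and tests were chosen with earlier results of these data known. Lists were described by counts and medians with no set test. Alternatives covered array scaling, a filter on dim probe sets, another variance model, weights per array, the run of calf numbers, the probe set per gene, the threshold and left-out calves. The fit was tested on simulated data. The number of arrays limits precision. Figures used matplotlib 3.10.9.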

Additional observations from a re-analysis of the deposited data

Results flagged for a closer look

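In 4 of 82 groups of 5 calves checked, 1 calf stood apart, with a gap to its nearest neighbour above 0.71 of the range of its group. Chance gives about 1 in 20 such groups, and such a gap can be small on the log2 scale, as for LAMA4. Control calf 180 had 4.17 for MMP16, whereas the rest of its group had 4.93 to 5.21. Hypoxia calf 199 had 4.09 for ADAM12 (rest of the group 3.35 to 3.56) and 8.57 for PLAU (rest of the group 7.56 to 7.81). Control calf 195 had 9.06 for LAMA4 (rest of the group 9.16 to 9.20).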

How the results depend on the processing

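MMP19 passed in all 17 alternatives that could be fitted to it (differences of 0.68 to 1.65, highest adjusted p = 0.0445); it was not tested where dim probe sets were left out. The passing ADAM10 probe set passed in 14 of 17, and TIMP1 in 0 of 18 (adjusted p = 0.0545 to 0.213). Of the 52 probe sets 1 passed without hypoxia calves 178 and 199, 5 at an adjusted p under 0.1, and 1 to 3 with single calves left out. Of the 30 genes 2 passed with dim probe sets left out, with another variance model, with array weights or counting any probe set, 3 with probe sets averaged, and 1 to 2 with single calves left out. ADAM19 was one of them with dim probe sets left out, another variance model, array weights, averaged probe sets or control calf 195 left out. Over all probe sets, 217 passed with the run of calf numbers (173 to 181 or 192 to 204) as a term, 155 without hypoxia calves 178 and 199, 1436 at an adjusted p under 0.1 and 241 to 605 with single calves left out. Without calves 178 and 199, 0 of the other proteases, of the inducers, of the matrix substrates and of the ADAM substrates passed; with the number run as a term 1 of the other proteases passed, 2 of the plasminogen genes (not ANXA2, adjusted p = 0.0851), 2 of the matrix substrates (not COL12A1, adjusted p = 0.0700) and 0 of the inducers and of the ADAM substrates. Signs turned for small differences: ADAMTS1, MMP14 and ADAM12 were -0.058, -0.054 and -0.010 with the number run as a term, ADAM12 was -0.095 without calves 178 and 199, and ADAMTS5 was 0.002 with its probe sets averaged. With single calves left out, MMP14 ran from -0.031 to 0.175, ADAM12 from -0.075 to 0.111 and ADAMTS5 from -0.084 to 0.041. The cause was not tested. No paired analysis was possible because the groups share no calf numbers.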

Other observations

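Several of these genes are neighbours in RefSeq's ARS-UCD2.0 gene table for cattle. ADAMTS1 and ADAMTS5 lie next to each other with 0 protein-coding genes between them, and on their brightest probe sets they differed by 0.27 ± 0.34 and -0.03 ± 0.10. MMP1 and MMP3 are also adjacent, with MMP13 and MMP20 nearby, and the differences of these 4 genes lay between -0.11 and 0.07. ADAM9 and ADAM2 have 2 protein-coding genes between them and differed by 0.39 ± 0.19 and -0.03 ± 0.10.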
